A study of Sus scrofa with 15 samples.

Results

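CA3, which encodes carbonic anhydrase III, and FBXO32, which encodes the F-box protein atrogin-1, were followed in the backfat of 15 Iberian pigs. Both genes are commonly listed among skeletal muscle genes, and both are also known to be expressed in fat. The members were all probe sets whose annotated symbol was exactly CA3 or FBXO32. They came to 3 of the 3255 non-control probe sets of the table, 1 for CA3 and 2 for FBXO32, of which the one with the higher mean signal is called the first. MYL1, a light chain of fast skeletal myosin with 1 probe set, was the comparator. The 2 genes were chosen with their values on these arrays known, their relation to MYL1 included. Levels and correlations are therefore given as descriptions, and the fits below were run over all probe sets.

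Carbonic anhydrases catalyse the reversible hydration of carbon dioxide to bicarbonate. Carbonic anhydrase III is a cytosolic form with low catalytic activity that is abundant in slow muscle fibres and in adipocytes, and its reactive cysteines can carry glutathione. Atrogin-1 is the subunit of an SCF ubiquitin ligase that recognises substrates for degradation by the proteasome. In mouse and human muscle its gene is induced by FoxO transcription factors during fasting and disuse, and insulin signalling lowers it.

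The pigs were castrated males of the Iberian breed, 8 on a high-oleic diet and 7 on a control (standard) diet, with 1 Affymetrix porcine array of the inner backfat layer at the last rib per animal. Both groups were fed from 28 kg live weight to slaughter, which was planned at 110 kg, over 24 weeks. The high-oleic feed held 3360 kcal per kg and the control feed 3130 kcal per kg, and control animals received 10% more feed so that energy and protein intake matched. The comparison addresses how a diet rich in oleic acid bears on gene expression in fat, and the animal was the replicate. Values were log2 signals with array medians between 6.39 and 6.67, and precision is limited by how many arrays there were. The table held only variable probe sets, with a third-largest deviation from the row median of at least 0.59 log2 in every row. Of the adipocyte list 9 of 38 genes were measured, among them LEP, which encodes leptin, at 11.82 ± 0.51 in the high-oleic group and 11.20 ± 0.73 in the control group (SD, n = 8 and 7).

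CA3 had a high signal in every animal, with a small spread. The lowest, median and highest log2 signals were 13.01, 13.71 and 14.02 on the high-oleic diet, against 12.48, 13.39 and 13.75 on the control diet. The groups overlapped, with 4 high-oleic animals (3, 4, 5 and 6) above all controls and 2 controls (4 and 6) below all high-oleic animals. Over the 15 animals the range was 1.54 log2, or 2.91-fold, and the SD of 0.447 was larger than that of 21.0% of all probe sets, whose median SD was 0.551. CA3 lay close to the top of the measured scale, between 0.00 and 1.35 log2 below the highest signal on the same array, control probe sets included. Whether the top of the scale narrowed its spread and its 2.91-fold range was not tested. Its third-largest deviation, 0.595, was just over the smallest in the table.

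CA3 averaged 13.61 ± 0.38 in high-oleic animals, against 13.27 ± 0.48 in controls (SD, n = 8 and 7). The difference, high-oleic minus control, was 0.33 with a standard error of 0.25 and a 95% interval of -0.19 to 0.86. On the linear scale this is 1.26-fold, with an interval of 0.877 to 1.81. In limma the unadjusted p was 0.199 and the Benjamini-Hochberg adjusted p was 0.999, so the difference did not pass the threshold of 0.05. It was 0.07 after quantile normalization, which sets values by their rank on each array, and was 0.20 without control animal 4. In bulk tissue, fewer cells of a type and less RNA per cell cannot be told apart, here and in all that follows.

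FBXO32 had lower signals than CA3, with a wider spread among control animals. Counted from the brightest of the 3255 probe sets on each array, the first probe set ranked between 227 and 1093. The second ranked between 489 and 1925. The lowest, median and highest log2 signals of the first probe set were 8.05, 8.47 and 8.80 on the high-oleic diet, against 7.56, 8.68 and 10.17 on the control diet. Control animal 1 stood above all high-oleic animals at 10.17, and control animals 2 and 5, at 7.90 and 7.56, stood below all of them. The other 4 controls lay within the high-oleic range. The whole range was 2.62 log2, or 6.13-fold.

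The second FBXO32 probe set ordered the animals in nearly the same way. Its lowest, median and highest signals were 6.53, 7.32 and 7.90 on the high-oleic diet, against 6.17, 7.51 and 9.03 on the control diet. The same control animal was highest, and the same 2 controls were below all high-oleic animals. Across the 15 animals the probe sets correlated with a Pearson's r of 0.966 and a Spearman's rho of 0.964, and r was 0.944 without control animal 1. The first minus the second varied between 0.89 and 1.52 log2, with an SD of 0.194.

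On the high-oleic diet FBXO32 averaged 8.47 ± 0.31, against 8.58 ± 0.85 on the control diet (first probe set, SD, n = 8 and 7). The difference was -0.11 with a standard error of 0.31 and a 95% interval of -0.76 to 0.54. The second probe set averaged 7.27 ± 0.43 in high-oleic animals, against 7.38 ± 0.96 in controls, and differed by -0.11 with an interval of -0.83 to 0.61. The limma adjusted p was 0.999 for both. Without control animal 1 the sign turned, to 0.16 and 0.17, and without control animal 5 the first probe set differed by -0.28. The difference between the SDs of the diets was not tested.

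Across the table limma called 0% of the probe sets between the diets at an adjusted p under 0.05, and 3.93% at an unadjusted p under 0.05. Of the 3 member probe sets, 0 passed either. The median difference of all probe sets was -0.03.

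**Figure D1:**
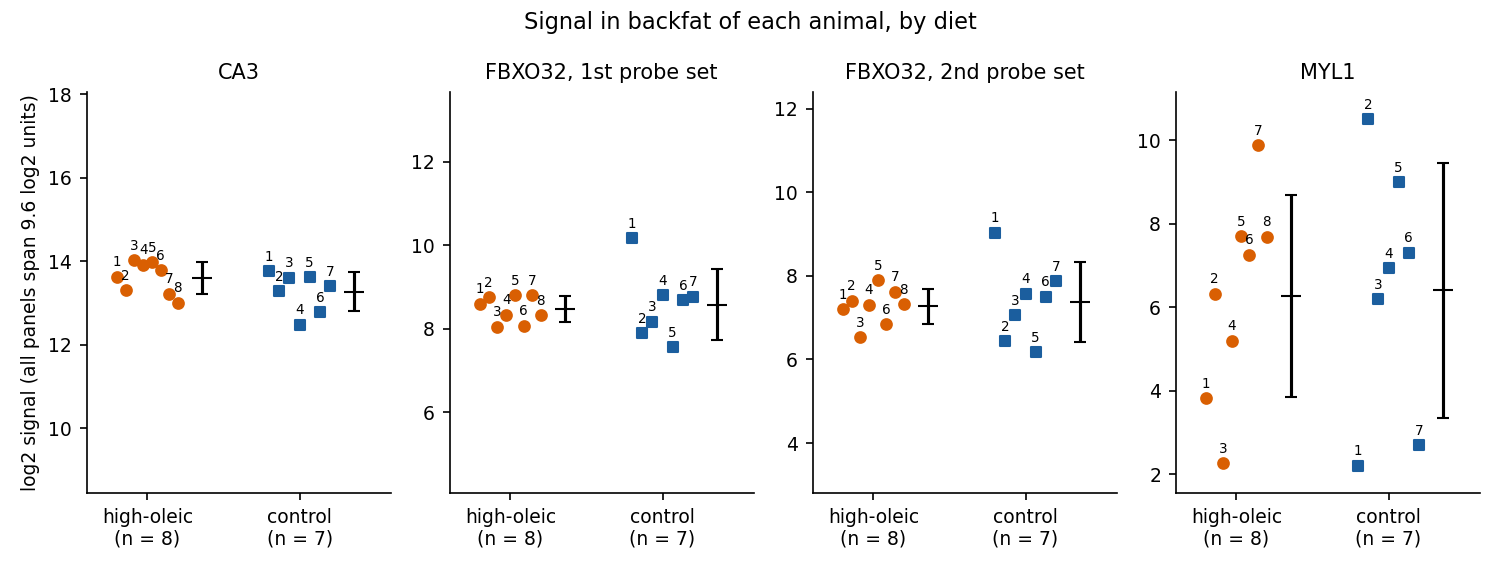
Log2 signal of CA3, the 2 FBXO32 probe sets and MYL1 in each animal, by diet; points carry the animal's number and bars show the mean ± SD of 8 high-oleic and 7 control animals, on axes of equal span. CA3 spans 1.54 log2 and MYL1 8.29, and control animal 1 stands above the other animals in both FBXO32 panels.

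MYL1 varied far more than either gene. Its lowest, median and highest log2 signals were 2.27, 6.79 and 9.88 on the high-oleic diet, against 2.21, 6.94 and 10.49 on the control diet. The groups overlapped almost fully, and the range was 8.29 log2. The lowest signals lay near the lowest value in the table, 1.49, and were not shown to be above background, so no fold is given. The MYL1 difference between diets was -0.14 with a 95% interval of -2.51 to 2.23, and the limma adjusted p was 0.999.

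Over the 15 animals neither gene went up with MYL1. The 3 animals with the least MYL1, control animal 1, high-oleic animal 3 and control animal 7, had MYL1 signals of 2.21, 2.27 and 2.70. Their CA3 signals were 13.75, 14.02 and 13.39, the first 2 being the highest of their diets. Their FBXO32 signals were 10.17, 8.05 and 8.77, so that the lowest MYL1 went with the highest FBXO32 of the controls and with the lowest of the high-oleic animals. At the other end, control animal 2 and high-oleic animal 7 had the most MYL1, at 10.49 and 9.88. There CA3 was 13.28 and 13.22, and FBXO32 was 7.90 and 8.80.

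Over all 15 animals r with MYL1 was -0.377 for CA3, with a rho of -0.421. It was -0.445 for the first FBXO32 probe set and -0.408 for the second, with rho at -0.20 and -0.204. Leaving out single animals kept r between -0.452 and -0.268 for CA3. For the first FBXO32 probe set it lay between -0.609 and -0.197, the last without control animal 1. Without the 2 animals farthest from the median of MYL1 (control animal 1 and high-oleic animal 3), r was -0.181 for CA3, -0.390 for the first and -0.443 for the second FBXO32 probe set. A line of CA3 on MYL1 had a slope of -0.064 log2 per log2 of MYL1, and that of the first FBXO32 probe set was -0.101.

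Most measured genes of the skeletal muscle list followed MYL1. Of the list's 60 genes 18 were measured, MYL1 included. Of the 17 others, 16 had a positive r with MYL1 and 13 had an r above 0.7, with a median of 0.808. Only variable probe sets were available, and the bearing of that selection on these counts was not tested. How many of all probe sets had an r above 0.7 was not counted. The highest were TNNC2, fast troponin C, at 0.983, CKM, muscle creatine kinase, at 0.969, and SLN, the calcium pump regulator sarcolipin, at 0.964. TNNC2 changed by 0.86 and CKM by 0.80 log2 per log2 of MYL1. Their lowest signals, 2.65 and 2.58, were, like those of MYL1, not shown to be above background. The bearing of this on slopes per log2 of MYL1, those of CA3 and FBXO32 included, was not tested. The lowest r with MYL1 was that of DES, the intermediate filament desmin also made by smooth muscle, at -0.134, followed by CKMT2 at 0.462. All 3 member probe sets lay below DES. Over all probe sets the median r was 0.030, and 10.1% had a lower r than CA3, 5.56% than the first and 7.78% than the second FBXO32 probe set. All these correlations share the same 15 arrays and the same MYL1 values, and the list was written with earlier results of these data known.

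**Figure D2:**
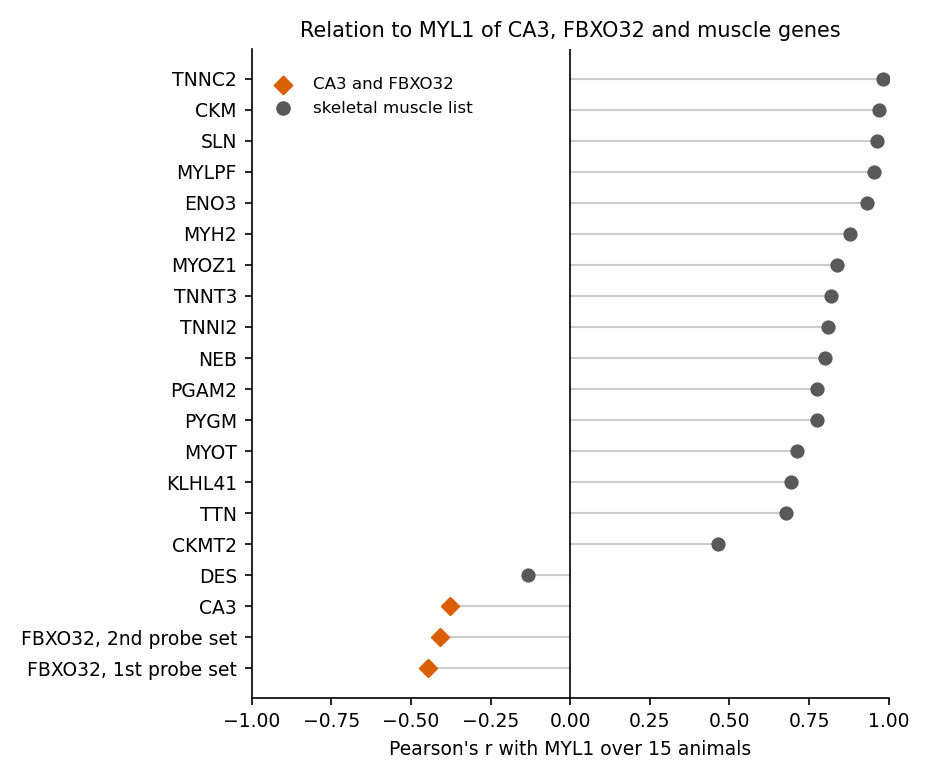
Pearson's r with MYL1 over the 15 animals for the CA3 and FBXO32 probe sets (diamonds) and for 17 other genes of the skeletal muscle list (circles). The muscle genes have a median of 0.808, and the 3 diamonds lie at -0.377, -0.408 and -0.445, below all of them.

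The whole muscle list gave values near those of MYL1, but the 2 are not independent. MYL1 is itself among the 18 genes of the list score and had an SD of 2.63 log2. The mean deviation of the 18 genes correlated with MYL1 at 0.942, which this overlap partly fixes. Its r was -0.341 with CA3, -0.439 with the first and -0.451 with the second FBXO32 probe set. CA3 and FBXO32 did not follow each other closely either, with an r of -0.095 over the 15 animals and -0.375 without control animal 1.

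Within the diets, r with MYL1 had the same sign for CA3 and opposite signs for FBXO32. For CA3, r was -0.549 among the 8 high-oleic animals, between -0.717 and -0.387 with single animals left out, against -0.284 among the 7 controls, between -0.462 and -0.019. The -0.019 was reached without control animal 1, so the relation among controls rested on that animal. For the first FBXO32 probe set, r was 0.487 among high-oleic animals, between 0.207 and 0.672 with single animals left out, against -0.806 among controls, between -0.897 and -0.684. The second gave 0.675 among high-oleic animals and -0.883 among controls. In the high-oleic group FBXO32 was lowest in animal 3, which had the least MYL1. In the control group it was highest in animal 1, with the least MYL1, and lowest in animals 5 and 2, with the most.

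The difference of these slopes did not pass adjustment. It was chosen for a fit after the values were seen, and was fitted in limma as an interaction of diet and MYL1 over the other 3254 probe sets. The slope of the first FBXO32 probe set was 0.06 (standard error 0.08) log2 per log2 of MYL1 in high-oleic animals and -0.22 (0.07) in controls. High-oleic minus control was 0.29 with a standard error of 0.10, a 95% interval of 0.08 to 0.50 and an unadjusted limma p of 0.0102. The second differed by 0.40 with a standard error of 0.10, an interval of 0.19 to 0.60 and an unadjusted limma p of 0.00079. After adjustment over the table both had a limma p of 0.734, and that of CA3 was 0.947. At an unadjusted p under 0.05 this fit called 6.05% of the probe sets, and 0% at an adjusted p under 0.05. With single animals left out the difference of the first probe set lay between 0.20, without control animal 1, and 0.36. Its 95% interval included 0 without control animal 1 (-0.02 to 0.42) and without high-oleic animal 3 (-0.01 to 0.52). These animals had the least MYL1 of their diets. For the second probe set the same intervals were 0.10 to 0.55 and 0.09 to 0.60.

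**Figure D3:**
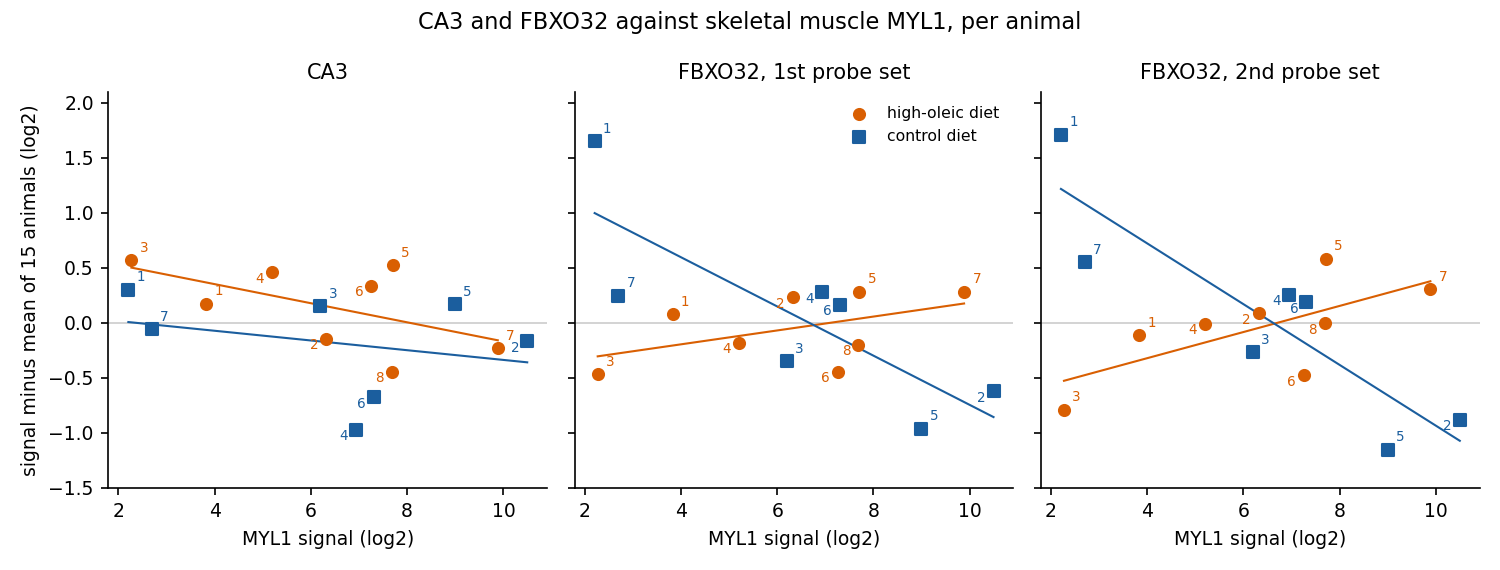
Signal of CA3 and the 2 FBXO32 probe sets, each minus its mean over 15 animals (log2), against the MYL1 signal (log2), with a line per diet; numbers are the animals. FBXO32 slopes are 0.06 and 0.12 in high-oleic animals and -0.22 and -0.28 in controls, a difference with a limma adjusted p of 0.734.

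High-oleic animals were lighter when slaughtered, so weight and diet were partly confounded. It was 109.2 ± 3.52 kg in high-oleic animals (104.5 to 116 kg) and 117.2 ± 7.32 kg in controls (112 to 133 kg; SD, n = 8 and 7). The difference of -8.03 kg had a p of 0.00435 in a two-sided exact permutation test over 6435 splits. Control animal 5 weighed 133 kg, and without it the difference was -5.40 kg (exact p = 0.0113).

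CA3 showed no clear relation to weight. At fixed diet its slope was 0.05 log2 per 10 kg with a standard error of 0.25 and a 95% interval of -0.46 to 0.57. The limma adjusted p was 0.976, and without control animal 5 the slope was -0.37. The 2 controls lowest in CA3, animals 4 and 6, weighed 117 and 118 kg, while control animal 5, at 133 kg, had 13.62.

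FBXO32 had a negative slope on weight that rested on the heaviest animal. The slope was -0.43 log2 per 10 kg for the first probe set (standard error 0.29, 95% interval -1.04 to 0.17) and -0.50 for the second (-1.16 to 0.17). The limma adjusted p was 0.916 for both. Control animal 5 had the lowest signal of both probe sets, and without it the slopes were 0.09 and 0.17. Within the high-oleic group the slope of the first probe set was 0.11 (standard error 0.56), against -0.58 (0.37) within the control group. The difference of 0.70 had a standard error of 0.71 and a limma adjusted p of 0.996.

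At fixed diet, limma called 0% of all probe sets by weight at an adjusted p under 0.05 and 3.81% at an unadjusted p under 0.05. The members passed neither, and the test of the slope difference between diets called 0%. The median slope of all probe sets was 0.04. With weight in the fit, the diet difference of CA3 was 0.37, or 0.19 when control animal 5 was also left out. That of the first FBXO32 probe set was -0.46, or -0.23 without that animal. With MYL1 in the fit the diet differences were 0.32 and -0.12.

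**Figure D4:**
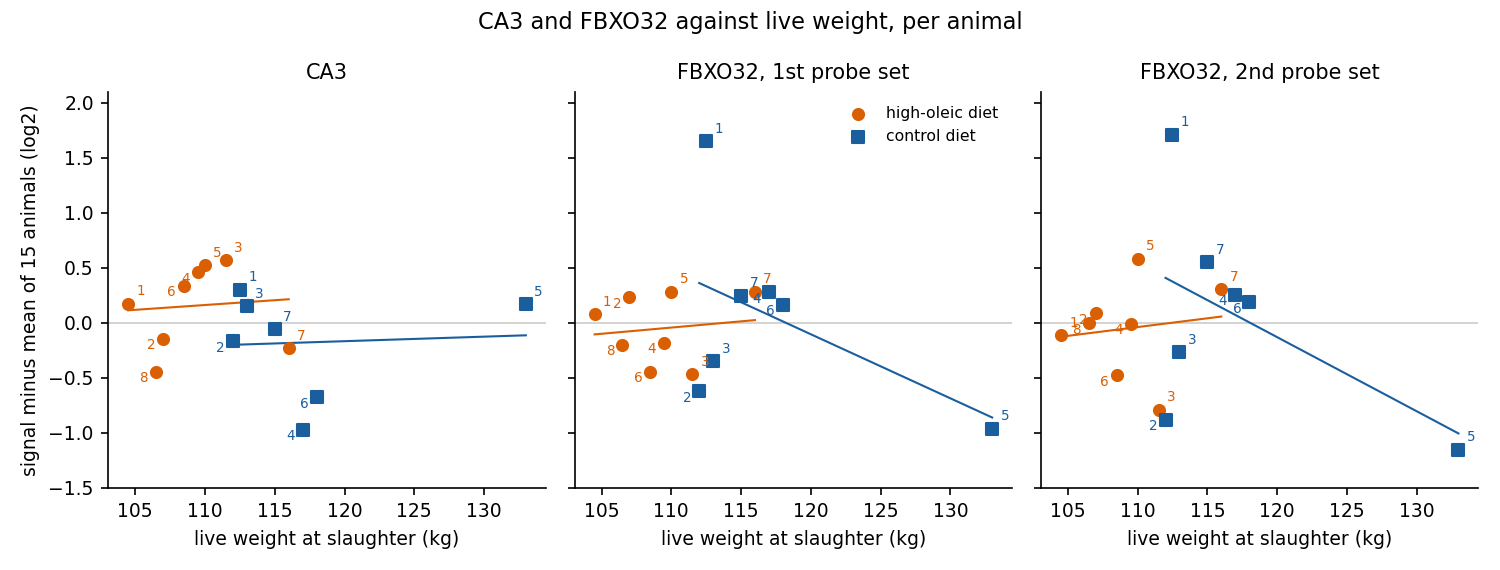
Signal of CA3 and the 2 FBXO32 probe sets, each minus its mean over 15 animals (log2), against live weight at slaughter (kg), with a line per diet; numbers are the animals. The control lines of FBXO32 fall towards animal 5 at 133 kg, and no slope passed the limma test.

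Other genes of the pathways around FBXO32 were thinly covered. Of 36 genes of the FoxO and atrophy programme 4 were measured (PDK4, SESN1, CDKN1B and FBXO21), and TRIM63, the other muscle ubiquitin ligase of that programme, was not analysed here. By diet 0 passed in either direction, with a median difference of -0.18 against -0.03 over all probe sets, and by weight 0 passed in either direction. PDK4, a kinase that restrains pyruvate oxidation and is a known FoxO target, was 11.86 ± 0.57 in high-oleic animals and 11.05 ± 1.53 in controls (SD, n = 8 and 7), with a limma adjusted p of 0.999. The FoxO list's mean deviation correlated with the first FBXO32 probe set at 0.618 (rho 0.614), between 0.491 and 0.70 with single animals left out. All 4 genes had a positive r with FBXO32, from 0.222 for FBXO21, another F-box protein, over 0.244 for SESN1, a stress-induced sestrin, and 0.412 for CDKN1B, a cell cycle inhibitor, to 0.539 for PDK4. How many of all probe sets had a positive r with FBXO32 was not counted. Without control animal 1 the r of the 4 genes with FBXO32, in the same order, were 0.261, 0.185, 0.191 and 0.497. By rank, PDK4 had a rho of 0.296 over all animals. The list score is a mean of unscaled deviations, and PDK4 had the largest SD of the 4 genes on both diets. With CA3 the list's r was 0.250.

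Of 37 other SCF ligase and F-box genes 3 were measured, FBXW4, FBXW7 and FBXL4, all substrate-binding subunits. By diet and by weight 0 passed in either direction, the median diet difference was -0.03, and the list correlated with FBXO32 at 0.224. Of 23 carbonic anhydrases and acid-base transporters 1 was measured, CA12, a membrane-bound carbonic anhydrase. CA12 differed between diets by -0.05, and its r was -0.211 with CA3 and -0.418 with FBXO32, the second being -0.140 without control animal 1. The 13 slow-fibre genes on the list, the fibre type in which CA3 is most abundant, had 0 measured members here, so the muscle comparison rests on fast-fibre and general muscle genes.

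Of 32 antioxidant and glutathione genes 5 were measured, and by diet and weight 0 passed in either direction. Their median diet difference was 0.25. All 5 had a negative r with CA3, and the list's mean deviation gave -0.542, between -0.585 and -0.502 with single animals left out. The strongest was TXNRD1, thioredoxin reductase, at -0.512. GPX4 averaged 2.82 in high-oleic animals and 2.50 in controls, near the lowest measured value of 1.49, and was not shown to be above background. How many of all probe sets had a negative r with CA3 was not counted. With FBXO32 the list's r was 0.114.

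The adipocyte list had only weak relations to either gene. By diet and weight 0 of its 9 measured genes passed after adjustment. At an unadjusted limma p under 0.05, 3 passed by diet and 2 by weight, against 3.93% and 3.81% of all probe sets. In high-oleic animals 8 had a higher and 1 a lower mean, the median difference being 0.45 against -0.03 over all probe sets. The share of all probe sets with a higher mean in high-oleic animals was not counted. The list's mean deviation had an r of 0.044 with CA3 and -0.188 with FBXO32.

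**Figure D5:**
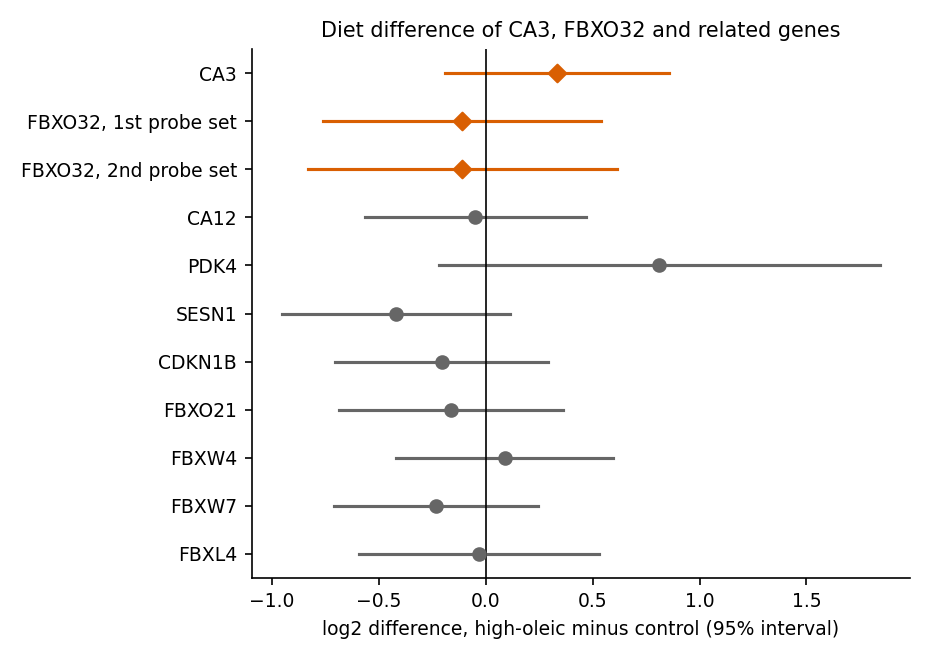
Difference between diets (log2, high-oleic minus control) with its 95% interval in limma for the CA3 and FBXO32 probe sets (diamonds) and 8 genes of the carbonic anhydrase, FoxO and F-box lists (circles), 8 high-oleic against 7 control animals. All intervals include 0.

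Markers of other cell types were set against the members. The 10 measured smooth muscle and pericyte genes correlated with FBXO32 at 0.630 by their mean deviation, with 9 of 10 positive. The share of all probe sets with a positive r with FBXO32 was not counted. The rho of the mean deviation was 0.282, and its r was as low as 0.235 with a single animal left out. Without control animal 1, single genes had r from -0.290 for ACTG2 to 0.638 for KCNJ8, with DES at -0.001 and RGS5 at -0.131. Their mean deviation ranged from -0.51 to 0.22 in high-oleic animals and from -0.45 to 1.33 in controls. For CA3 the 8 measured macrophage genes all had a negative r, though the share of all probe sets with a negative r was not counted. The mean deviation of these genes gave -0.478, between -0.578 and -0.395 with single animals left out. That score ranged from -1.20 to 1.24 in high-oleic animals and from -0.17 to 0.09 in controls. The part of these cell types in the levels of CA3 and FBXO32 was not tested. None of the marker lists had a member that passed by diet or by weight.

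Control signals and array-wide signals were set beside the members. The spiked control transcripts had an r of -0.246 with CA3 and -0.203 with FBXO32, against 0.428 with MYL1. Without high-oleic animal 8 that of CA3 was -0.086, and the rho of FBXO32 was 0.039 over all animals. The 75th percentile of the array had an r of 0.365 with the first and 0.395 with the second FBXO32 probe set, and of -0.094 with CA3, and its part in the FBXO32 levels was not tested. The gap between the 3′ and 5′ actin control probe sets, a sign of RNA integrity, had an r of -0.401 with CA3, 0.019 with FBXO32 and 0.504 with MYL1. Its part in the relation of CA3 to MYL1 was not tested.

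The genes most like CA3 over the 15 animals were PRPF39, a splicing factor, with an r of 0.678, MAPKAPK5, a protein kinase, with 0.631, and KITLG, the ligand of the receptor KIT, with 0.630. RYR2, a calcium release channel, followed with 0.620, RPS27, a ribosomal protein, with 0.616 and AMY2, an amylase, with 0.614. Without control animal 4, the lowest in CA3, MAPKAPK5 was at 0.366 and AMY2 at 0.298. The most opposed were the transcription factor MYC at -0.766, MCAM, an adhesion molecule of vessel walls, at -0.763 and at -0.653 on its other probe set, EIPR1 at -0.741 and the transcription factor TBX2 at -0.652. On its other probe set EIPR1 was at -0.580. TBX2 had a rho of -0.418, and its r was -0.526 without control animal 4. PRPF39 and MAPKAPK5 had an r with MYL1 of -0.054 and -0.063, and KITLG one of -0.562.

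The genes most like FBXO32 were CASP8, an initiator caspase, with an r of 0.793 (rho 0.828), and ANKRD37, an ankyrin repeat protein, with 0.770. LOC100519098 followed with 0.738, STC1, the secreted glycoprotein stanniocalcin, with 0.714, IMPA1, an inositol monophosphatase, with 0.712 and GBP2, an interferon-induced GTPase, with 0.711. Control animal 1 carried several of these. Without it r was 0.683 for CASP8, 0.582 for ANKRD37, 0.405 for LOC100519098, 0.578 for STC1, 0.697 for IMPA1 and 0.384 for GBP2. The most opposed were DBN1, an actin-binding drebrin, at -0.705, CTNNBIP1, an inhibitor of beta-catenin, at -0.700, ACOX3, a peroxisomal acyl-CoA oxidase, at -0.694 and CDH11, a cadherin of connective tissue cells, at -0.674. Without control animal 1 these were -0.347, -0.337, -0.446 and -0.649. On their other probe sets IMPA1 was at 0.399 and DBN1 at -0.496. Against the second FBXO32 probe set the 6 most alike had r between 0.616 for STC1 and 0.693 for CASP8 and ANKRD37. All of these were picked for their r and share the same arrays, so their values are a description.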

How the data were processed

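Expression was measured in backfat of 15 pigs with 1 array each, and groups, animal numbers and live weights came from the labels. The table deposited by the authors holds log2 signals, 1 row per probe set. The tools GCOS and GCRMA are named, without versions or settings, per the submitters' processing notes. The log2 scale was read from the values, which lay between 1.49 and 14.36, and arrays correlated between 0.759 and 0.958. Of 3272 probe sets 17 controls were left out. Of the 3255 tested, 1455 had 1 symbol in the platform annotation, 27 several and 1773 none.

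Diet differences and live weight slopes were fitted on the deposited log2 values by lmFit and eBayes of limma 3.58.1 (R 4.3.3), with no further normalization or filter. P-values are two-sided and Benjamini-Hochberg adjusted over all 3255 probe sets, with a threshold of 0.05. Fits were tested on simulated data. A list score is the mean over genes of the log2 value minus the gene's mean. The probe set with the highest mean stood for a gene in its list. For each member gene's brightest probe set, the 6 genes with the highest and the 4 with the lowest r were named. The alternatives tried were quantile normalization, median centring, a filter at a mean log2 signal of 5, a trended robust prior, an exact permutation test, live weight or MYL1 as a covariate, the animal number as a block and leaving out each animal. Members, gene lists and tests were chosen with earlier results of these data known. The interaction of diet and MYL1, and live weight as a covariate without control animal 5, were added after seeing the data. The labels name no batch. Each animal is a separate pig.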

Additional observations from a re-analysis of the deposited data

Results flagged for a closer look

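Of 32 group values checked for an animal far from its group, 4 stood apart, where about 1.6 would by chance alone. Control animal 5 weighed 133 kg, against a median of 114 kg (112 to 118) in the other controls, and it had the lowest signal of both FBXO32 probe sets. Its mean deviation over the 3 other SCF and F-box genes was also low, at -0.26, against a median of 0.08 (0.01 to 0.20). High-oleic animal 7 had a skeletal muscle list score of 2.33, against a median of -0.41 (-1.37 to 0.22) in the others of its diet, while its CA3 signal was 13.22 and its FBXO32 signal 8.80. High-oleic animal 8 had a fibroblast and matrix list score of 0.66, against a median of -0.16 (-0.39 to 0.09), and the lowest CA3 signal of its diet, 13.01. No value of CA3 or FBXO32 itself was among the 4.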

How the results depend on the processing

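No alternative moved a diet or weight test of CA3 or FBXO32 past the threshold. Limma called 0 probe sets by diet without any single animal. By weight it called 0 to 5, with 5 without control animal 2, 2 without high-oleic animal 7 and 1 without diet in the fit. The diet difference of CA3 ranged from 0.20 to 0.42 with single animals left out, that of the first FBXO32 probe set from -0.28 to 0.16 and that of the second from -0.31 to 0.17, both turning sign without control animal 1. The weight slope of CA3 ranged from -0.37, without control animal 5, to 0.14, and was -0.0062 after median centring and -0.12 without diet in the fit. Those of FBXO32 ranged from -0.58 to 0.087 and from -0.69 to 0.17, turning sign without control animal 5. For FBXO32 against MYL1, rho was -0.20, r was 0.487 and 0.675 within the high-oleic diet and -0.806 and -0.883 within the control diet, and -0.197 and -0.172 without control animal 1. The lowest r without single animals was -0.609 and -0.630, and for CA3 they ran from -0.452 to -0.268. With the animal number as a replicate block the diet difference was 0.42 for CA3 and -0.09 for FBXO32, and the weight slope -0.17 for CA3 and -0.44 and -0.77 for the FBXO32 probe sets. The numbers were not taken to pair the animals, as no label gives them a shared origin and 4 of 7 same-numbered pairs, not all, correlated over 0.1 (-0.161 to 0.296). As a hint from the data, 3 of 7 high-oleic animals correlated best with their own number. The causes of these shifts were not tested.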

Other observations

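RSAD2, an interferon-induced antiviral gene, was high in 2 animals, high-oleic animal 2 at 12.72 and control animal 1 at 12.88 log2. GBP2, among the genes most like FBXO32, is also induced by interferon, so the 2 animals were set against FBXO32. High-oleic animal 2 had an FBXO32 signal of 8.75, within the range of its diet, and control animal 1 had 10.17, the highest of all 15. RSAD2 was chosen after its values were seen, and no test was run.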
